A study of Sus scrofa with 599 samples.

Results

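The chromatin of the greater omentum (GOM), a visceral fat depot, and of the upper layer of backfat (ULB), a subcutaneous depot, was compared along the autosomes of the pig, and the bins described here are those that lay in the active compartment in GOM and in the inactive one in ULB. Of 113298 bins of 20 kb, 989 bins (0.873%, 19.78 Mb) had a positive A-B index in at least 70% of the 65 GOM samples and in at most 30% of the 54 ULB samples, all diets pooled. The A-B index is a score without a unit that the authors derived from Hi-C contact maps, and it is positive where a bin contacts mostly active chromatin (compartment A) and negative where it contacts mostly inactive chromatin (compartment B). Because the bins were selected on the index of GOM and ULB, its values in these depots are given as a description, without a test. The mesenteric (MAD) and retroperitoneal (RAD) depots, the RNA and the H3K27ac marks played no part in the choice.

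The samples came from 2-year-old female Bama pigs, a Chinese miniature breed, on 3 diets. The NC animals stayed on a normal diet, the WG animals gained weight over 22 weeks of high-fat feeding, and the WL animals had those 22 weeks followed by 12 weeks at 10% of the normal intake. Hi-C samples numbered 9, 46 and 10 in GOM, 12, 37 and 10 in MAD, 12, 40 and 10 in RAD, and 5, 39 and 10 in ULB, for NC, WG and WL. RNA-seq libraries numbered 9, 45 and 10 in GOM, 12, 36 and 10 in MAD, 12, 39 and 10 in RAD, and 5, 38 and 10 in ULB. By the methods, Hi-C began with pulverized, cross-linked tissue of which the upper layer with the adipocytes was kept, a step that is not given for the RNA. In such bulk RNA, fewer cells of a type and less RNA per cell cannot be told apart. The labels do not say that a replicate number stands for one pig, so p-values measure the spread between these samples.

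Chromosomes fold into compartment A, which is rich in genes, transcribed and loosely packed, and compartment B, which is poor in genes and often bound to the nuclear lamina. Most of the genome keeps its compartment between related tissues, and the part that differs often holds genes of cell identity. The visceral and subcutaneous depots differ in developmental origin: part of the visceral fat descends from the mesothelium, the sheet of cells that covers the abdominal organs and expresses WT1, a zinc-finger transcription factor, while subcutaneous fat expresses limb and skin patterning factors such as EN1 and SHOX2.

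The promoters of the member genes with the largest expression difference between the depots are shown first, since these genes carry the expression results below. Each sequence is the strand of the gene, 5′ to 3′, over the 250 bases before the RefSeq start site in the reference genome Sscrofa11.1. Capitals mark matches, on either strand, to an E-box (CACCTG), a GC box (GGGCGG), the AP-1 site (TGANTCA) or the site of GATA factors, which is searched as AGATAA, and capitals in a longer run are matches that overlap. Their files' gene identifiers are ENSSSCG00000013316 (WT1), ENSSSCG00000006025 (PKHD1L1), ENSSSCG00000025652 (CDH1), ENSSSCG00000002262 (SV2B), ENSSSCG00000035456 (WWC1), ENSSSCG00000029484 (EMB) and ENSSSCG00000032398 (VGLL3, the gene that was lower in GOM).
WT1 promoter, chr2:28411217-28411466, forward strand: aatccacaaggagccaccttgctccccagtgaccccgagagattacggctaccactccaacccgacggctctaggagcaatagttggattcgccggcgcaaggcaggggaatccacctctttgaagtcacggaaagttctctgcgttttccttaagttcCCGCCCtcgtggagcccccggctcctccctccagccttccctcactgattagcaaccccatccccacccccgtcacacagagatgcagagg
PKHD1L1 promoter, chr4:28176332-28176581, reverse strand: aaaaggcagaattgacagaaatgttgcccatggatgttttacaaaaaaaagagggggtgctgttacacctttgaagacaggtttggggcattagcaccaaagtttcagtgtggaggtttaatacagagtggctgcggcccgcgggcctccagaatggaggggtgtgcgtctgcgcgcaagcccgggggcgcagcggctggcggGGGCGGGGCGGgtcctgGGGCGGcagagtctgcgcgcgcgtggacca
CDH1 promoter, chr6:18155987-18156236, reverse strand: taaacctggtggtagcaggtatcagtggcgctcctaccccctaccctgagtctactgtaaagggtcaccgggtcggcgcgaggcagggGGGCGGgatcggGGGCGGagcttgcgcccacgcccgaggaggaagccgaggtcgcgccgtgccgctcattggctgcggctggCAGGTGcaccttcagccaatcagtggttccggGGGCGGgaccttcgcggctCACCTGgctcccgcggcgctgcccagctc
SV2B promoter, chr7:87767248-87767497, reverse strand: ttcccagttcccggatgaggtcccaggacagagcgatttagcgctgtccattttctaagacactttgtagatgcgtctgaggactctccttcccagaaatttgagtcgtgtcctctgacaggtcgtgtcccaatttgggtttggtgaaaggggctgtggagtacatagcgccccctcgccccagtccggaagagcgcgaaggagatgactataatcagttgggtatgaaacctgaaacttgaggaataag
WWC1 promoter, chr16:55595203-55595452, reverse strand: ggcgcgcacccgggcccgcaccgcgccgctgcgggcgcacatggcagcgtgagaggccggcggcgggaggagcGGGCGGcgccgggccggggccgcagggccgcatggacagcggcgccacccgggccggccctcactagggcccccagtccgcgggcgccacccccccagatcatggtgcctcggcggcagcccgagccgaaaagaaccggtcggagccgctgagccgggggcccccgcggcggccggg
EMB promoter, chr16:30170496-30170745, reverse strand: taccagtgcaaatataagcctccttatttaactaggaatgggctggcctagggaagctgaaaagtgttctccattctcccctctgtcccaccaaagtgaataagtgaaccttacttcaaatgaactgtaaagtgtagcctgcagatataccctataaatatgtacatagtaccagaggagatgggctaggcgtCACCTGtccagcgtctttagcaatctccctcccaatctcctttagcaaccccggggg
VGLL3 promoter, chr13:168789774-168790023, forward strand: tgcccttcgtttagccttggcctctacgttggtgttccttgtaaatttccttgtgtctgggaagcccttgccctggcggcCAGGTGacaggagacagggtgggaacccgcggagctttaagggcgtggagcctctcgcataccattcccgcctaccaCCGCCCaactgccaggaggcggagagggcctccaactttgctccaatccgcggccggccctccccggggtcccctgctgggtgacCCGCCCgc
The WT1 window held 1 GC box, the PKHD1L1 window 3 GC boxes of which 2 overlapped, the CDH1 window 2 E-boxes and 3 GC boxes, the WWC1 window 1 GC box, the EMB window 1 E-box and the VGLL3 window 1 E-box and 2 GC boxes. The SV2B window held none of these letters. Over the promoters of all 44 protein-coding genes (PCGs) that start in a member bin, 11 held the E-box (25%) against 19.3% of 13052 placed promoters, 25 held the GC box (56.8% against 53.2%), 1 the GATA site (2.27% against 6.83%) and 2 the AP-1 site (4.55% against 4.47%). The median GC content of these windows was 63% for the member genes and 60% for all placed genes. These matches describe letters in a window of 250 bases and are not evidence of binding.

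One chromosome needs a caution before the results. Chromosome 10 held 323 of the 989 members (9.31% of its 3468 bins, 6.46 Mb), while the other autosomes together held 666 (0.606% of their bins, 13.32 Mb), with 104 on chromosome 1, 94 on chromosome 6, 70 on chromosome 4, 62 on chromosome 2 and none on chromosome 12. The index of each sample along chromosome 10 was correlated with the median over all samples, across its bins, as a description. The coefficient was negative in 12 samples, 5 of WG GOM and 7 of WG RAD, and was as low as -0.915, whereas its median was 0.932 and no sample fell below 0.857 on any other chromosome. A block of 207 bins at chr10:34080001-38220000, 4.14 Mb with 206 members, was summarized by the median index of its bins in each sample. This median ran from -5.60 to 4.00 over the samples and lay within 1 of 0 in only 17 of 240. It was positive in 48 of 65 GOM, 34 of 59 MAD, 39 of 62 RAD and 11 of 54 ULB samples. By the methods, the sign of the compartment score was set for each chromosome of each sample, and the part of that step in the chromosome 10 members was not tested. Without the 12 samples, the rule found 1106 bins, 396 of them on chromosome 10, and 983 of the 989 members were among them. Results on the index are therefore given for the 666 members on the other autosomes, called the members elsewhere, with those of chromosome 10 or of all members beside them.

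Members formed 345 runs of adjacent bins, of which 201 were single bins and 40 had 5 bins or more and together held 521 members. On the other autosomes there were 309 runs, of which 186 were single bins and 30 had 5 bins or more and held 242 members. The 2 longest runs, chr10:34080001-36300000 with 111 bins and chr10:36320001-38220000 with 95 bins, made up the block of chromosome 10. The longest run elsewhere, chr4:31620001-32080000 with 23 bins, covered the start of ZFPM2, whose protein is a cofactor of GATA transcription factors. Its mean index was 0.831, -0.0824, -0.647 and -0.742 in GOM, MAD, RAD and ULB. A run of 18 bins lay at chr10:62560001-62920000, and one of 16 bins at chr16:53860001-54180000 had a mean index of 0.546, -0.109, -0.604 and -0.926 in GOM, MAD, RAD and ULB. The 12 bins at chr2:28300001-28540000 held WT1, and their mean index was 1.53, -0.0729, -0.524 and -1.16 in GOM, MAD, RAD and ULB, so that 97.4%, 44.4%, 19% and 1.70% of the values were positive. The 15 bins at chr4:82000001-82300000 ended at the start of DPT. Of the 618 bins that flanked a run on the other autosomes, 280 were of medium frequency in GOM and low in ULB, 264 were high in GOM and medium in ULB, 35 were high in both and 34 were low in both.

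At the limits of the rule, 93 members were positive in 70.8% of GOM samples and 61 in 29.6% of ULB samples, of which 38 and 44 lay on the other autosomes. Just outside, 77 bins were positive in 69.2% of GOM samples and 62 bins in 31.5% of ULB samples, and otherwise met the rule, with 41 and 55 of them on the other autosomes. The 3 bins with the largest difference in mean index lay on chromosome 10, led by chr10:25060001-25080000 with 3.33 in GOM and -3.61 in ULB. Elsewhere, the largest was at chr13:203240001-203260000, with 1.87, -0.318, -0.520 and -1.24 in GOM, MAD, RAD and ULB. It was followed by chr2:28400001-28420000, the bin in which WT1 starts, where the mean index was 2.0, 0.285, -0.230 and -1.08 in GOM, MAD, RAD and ULB. That WT1 bin was positive in 98.5% of GOM, 66.1% of MAD, 27.4% of RAD and 0% of ULB samples. In single samples its index ran from -0.361 over a median of 1.97 to 4.69 in GOM and from -1.97 over -1.04 to -0.0657 in ULB, so the ranges of the depots touched through 1 GOM sample below 0.

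With diets taken apart, the share of the members elsewhere that were positive in a GOM sample had a median of 84.4% in NC (55.7 to 93.5%), 86.3% in WG (60.5 to 97%) and 92.1% in WL (87.4 to 97%). In ULB samples the share had a median of 15.8% in NC (3.60 to 22.4%), 15.3% in WG (3.0 to 25.2%) and 22.5% in WL (14.1 to 38.1%). The rule was met by 365 of the 666 bins on NC samples alone, by 568 on WG samples, by 477 on WL samples, and by 218 on each of the 3 diets. Over all bins of the genome, it was met by 1557 in NC, 1029 in WG and 1483 in WL. WG gave most of the samples behind the pooled rule, so the members' counts do not rank the diets. On chromosome 10 the rule was met by 301 of 323 bins in NC, 317 in WG and 7 in WL, and by 6 in all 3. The median share of chromosome 10 members positive in GOM reached 100% for both NC and WG but 39.2% for WL, with single samples of WG at 0% and at 100%.

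In median index over all diets, MAD and RAD lay between GOM and ULB, with MAD above RAD. The choice of bins high in GOM and low in ULB favours a place between them for any other depot. Only the order of MAD and RAD is free of that choice. Over the members elsewhere, the median of the bins' mean index was 0.556, -0.0177, -0.332 and -0.520 in GOM, MAD, RAD and ULB (0.784, 0.166, -0.0763 and -0.650 over all 989). MAD was above RAD in 590 of the 666 bins (874 of 989), and both lay between GOM and ULB in 450 (773 of 989). MAD exceeded GOM in 40 bins, and RAD fell below ULB in 160. On chromosome 10 the order of MAD and RAD changed with diet. There RAD was above MAD in 322 of 323 members in NC and in WL, and in 0 in WG.

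**Figure D1:**
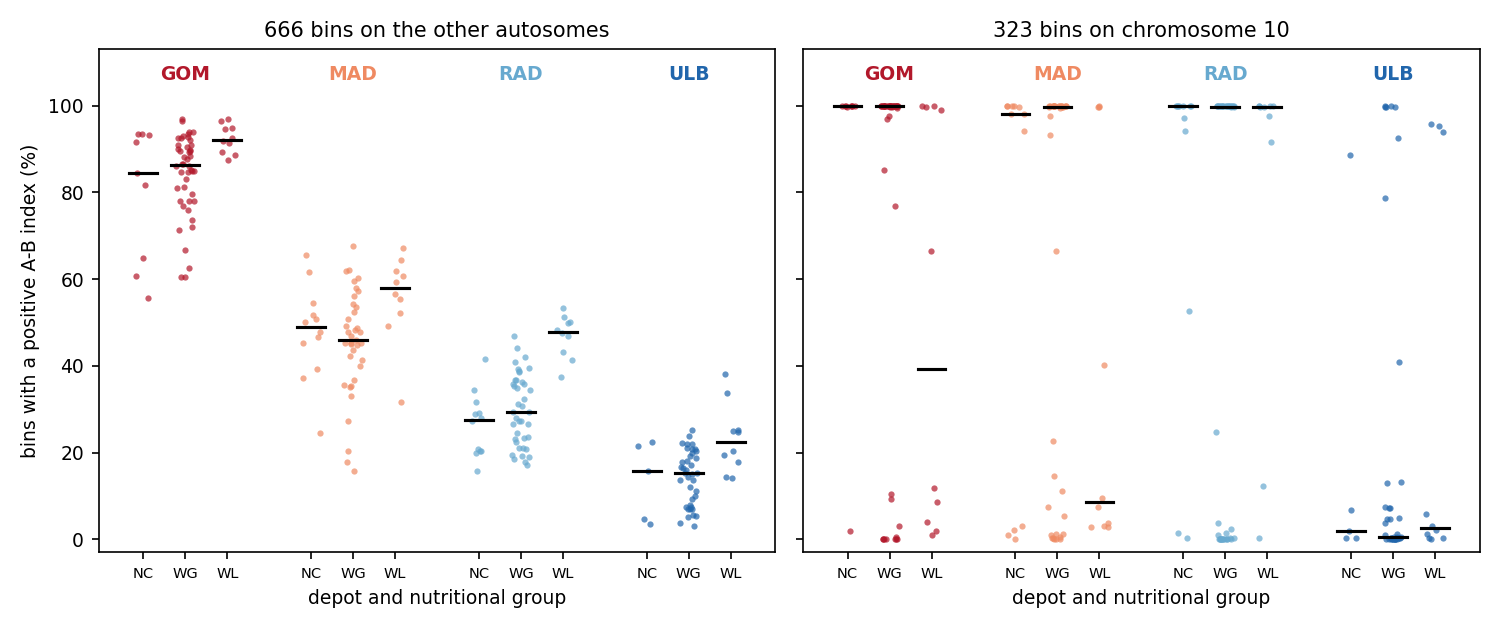
Percent of member bins with a positive A-B index in each Hi-C sample, by depot and diet, for members on the other autosomes (left) and on chromosome 10 (right). Each point is a sample and each line a median. On the left the medians descend from GOM (84.4 to 92.1%) over MAD (45.9 to 57.9%) and RAD (27.6 to 47.9%) to ULB (15.3 to 22.5%), while on the right single samples lie close to 0% or to 100%. The places of GOM and ULB follow from the choice of the bins.

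A MAD sample had a median of 48.9% of the members elsewhere positive in NC (24.6 to 65.6%), 45.9% in WG (15.8 to 67.7%) and 57.9% in WL (31.7 to 67.1%). A RAD sample had 27.6% in NC (15.8 to 41.6%), 29.3% in WG (17.1 to 46.8%) and 47.9% in WL (37.4 to 53.3%). The MAD share was the higher in 135 of 144 pairs of a MAD and a RAD sample in NC, in 1263 of 1480 in WG and in 85 of 100 in WL. The ranges of MAD and RAD overlapped in every diet, those of GOM and RAD in none, those of GOM and MAD in NC and WG but not in WL, and those of MAD and ULB in WG and WL but not in NC. Ranges set against GOM or ULB carry the choice of the bins. On chromosome 10 the medians were 98.1%, 99.7% and 8.51% in MAD and 100%, 99.7% and 99.7% in RAD for NC, WG and WL, and the ranges of the 2 depots overlapped in every diet.

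The study's frequency classes call a bin high at 70% or more positive samples, low at 30% or less, and medium between. In MAD, 157 members elsewhere were high, 331 medium and 178 low over all diets, and in RAD 50 were high, 272 medium and 344 low. Both depots shared the inactive class of ULB in 171 bins and the active class of GOM in 37. MAD was high and RAD medium in 117 bins, MAD medium and RAD low in 170, and both were medium in 148. The opposite order was rare, with 13 bins medium in MAD and high in RAD and 7 low in MAD and medium in RAD. With chromosome 10 included, 461 bins were medium in both, MAD was high in 167 and medium in 644, and RAD was high in 57 and medium in 588.

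**Figure D2:**
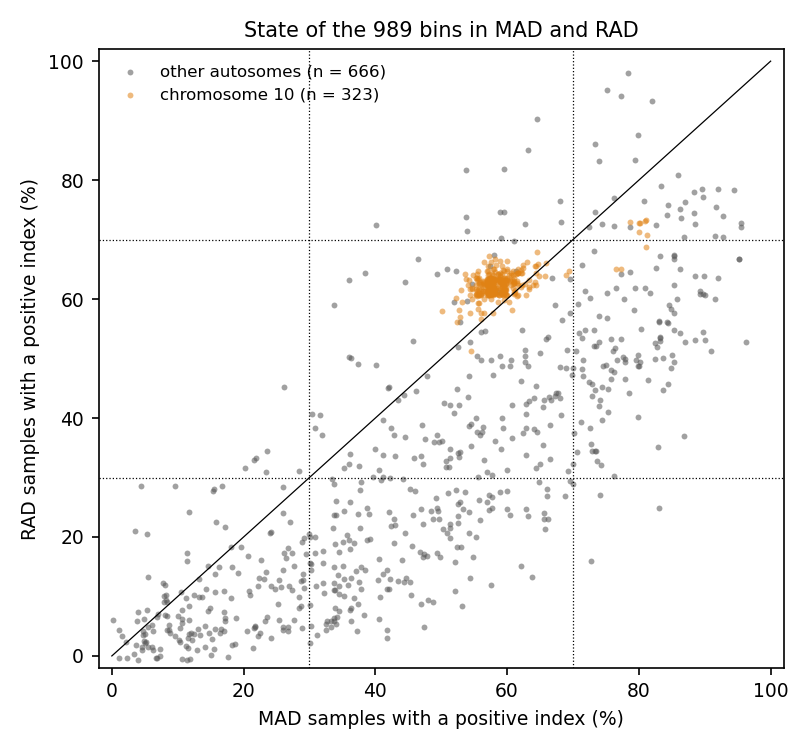
Percent of MAD samples (x axis) and of RAD samples (y axis) in which each member bin had a positive index. Each point is a bin, and most lie below the diagonal, with MAD above RAD in mean index in 590 of the 666 bins on the other autosomes.

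Bins that were active in MAD as in GOM are exemplified by chr6:62500001-62520000, with the highest mean index in MAD elsewhere (1.61, 1.09, 0.199 and -0.487 in GOM, MAD, RAD and ULB). It was followed by chr2:143000001-143020000, where MAD was above GOM (0.621, 1.07, 0.612 and -0.575), and by chr6:62260001-62280000 (1.28, 1.02, 0.257 and -0.300). The lowest MAD values fell in 3 bins within chr5:47960001-48100000, led by chr5:48080001-48100000 with 0.419, -1.05, -0.964 and -0.399 in GOM, MAD, RAD and ULB, so that MAD and RAD were below ULB there. For RAD, the highest value elsewhere was at chr5:32760001-32780000 (0.775, 0.407, 0.886 and -0.298 in GOM, MAD, RAD and ULB) and the lowest at chr3:119500001-119520000 (0.507, -0.833, -1.45 and -0.835).

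The index of MAD and RAD was compared with limma over all 113298 bins, and a bin was called at an adjusted p below 0.05 and a difference above 0.75. In NC, 141 of the 666 members elsewhere (21.2%) were called, and all 141 were lower in RAD, whereas 5.17% of all bins were called and 3.78% were lower in RAD. The median difference, RAD minus MAD, was -0.417 over these members and -0.0658 over all bins. On chromosome 10, 1 of 323 members was called, the bin in which PRKCQ starts, which was higher in RAD by 1.26. In WG, 25 members elsewhere (3.75%) were called and all were lower in RAD, against 1.24% of all bins (0.824% lower in RAD), and the median difference was -0.305 against -0.00509 over all bins. Of the bins called in WG, 600 lay on chromosome 10, where 0 members were called, and the share called on the other autosomes was 0.734%. In WL, 7 members elsewhere (1.05%) were called, all lower in RAD, against 1.07% of all bins (0.208% lower in RAD), with a median difference of -0.175 against 0.0963.

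Several bins with a gene start were among those called. In NC the bin in which COLEC10 and SAMD12 start was lower in RAD than in MAD by 1.17 (SE 0.23, limma adjusted p = 0.00382), that of VGLL3 by 1.05 (SE 0.23, adjusted p = 0.00675), that of BICC1 by 0.950 (SE 0.16, adjusted p = 0.00154) and that of VIPR2 by 0.810 (SE 0.18, adjusted p = 0.00667). The bins of ZNF470, ZNF471, ITGB8 with MACC1, ROR2 and WDR17 were also called in NC, and that of WDR17 in WG, where it was lower in RAD by 0.751. The WT1 bin was not called in any diet: its difference came to -0.63 in NC (adjusted p = 0.114), -0.49 in WG (adjusted p = 0.0101, under the limit on size) and -0.48 in WL (adjusted p = 0.17).

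The diets were compared within MAD and within RAD. NC against WG and WG against WL share the WG samples, so their values stand side by side. From NC to WG, 34 members elsewhere (5.11%) were called in MAD, 33 lower (4.95%) and 1 higher in WG, against 4.47% of all bins called and 0.678% lower, with a median difference of -0.00938 against 0.0545. In RAD 19 (2.85%) were called, 13 higher and 6 lower in WG, against 4.32% of all bins, and among them the COLEC10 and SAMD12 bin was higher in WG by 0.828. From WG to WL, 3 members (0.45%) were called in MAD, all higher in WL, against 1.01% of all bins. In RAD 54 (8.11%) were called, all higher in WL, against 3.83% of all bins (3.62% higher), and they included the bins of SAMD5 (0.848) and PPIC (0.770). The median difference in RAD from WG to WL was 0.330 over the members elsewhere and 0.156 over all bins. In the quantile normalized index this count of 54 became 3. With the replicate number as a block it became 2, but the diets were those of different pigs, so that block pairs no animals. As a count without a test, members elsewhere in the high class numbered 56 in WG and 219 in WL in RAD and 149 and 316 in MAD, while the high bins of the whole genome in RAD numbered 51339 in WG and 55288 in WL. On chromosome 10, 0 members were called in the diet comparisons.

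The median GC content of the members elsewhere was 41.5% against 40.6% over all bins, and they held 6.53 RefSeq gene starts per Mb, against 8.25 over all bins, 14.2 in bins active in both depots and 3.27 in bins inactive in both. The 988 bins with the opposite pattern, active in ULB and inactive in GOM, held 6.48 per Mb. The members on chromosome 10 differed from them, with a GC content of 36.6% and 0.929 gene starts per Mb. TAD boundaries, the edges of topologically associating domains, fell in 4.13 to 4.50% of the members elsewhere as the median over the samples of a depot and diet, against 4.36 to 5.11% of all bins.

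H3K27ac, a histone mark of active enhancers and promoters, is a readout that the rule did not use. The authors listed enhancer regions with ROSE on pooled reads, in 5 tables for GOM, 5 for MAD, 4 for RAD and 4 for ULB, and pooled reads leave no replicates, so no test was made. In NC, a region overlapped 72.7% of the members elsewhere in the GOM table, 55.4% in the MAD table, 40.8% in the RAD table and 31.2% in the ULB table, while the shares of all bins were 40.5%, 35.5%, 37.7% and 35.4%. By the labels, NC MAD had a single H3K27ac sample, so its table rests on that sample. In WL the members' shares were 62.8%, 52.3%, 35.1% and 28.2%, against 37.4%, 39.8%, 35% and 38.3% of all bins. The WG reads were listed by subgroup, and the members' shares ran from 60.5 to 62.9% in the GOM tables, from 33.6 to 39.3% in the MAD tables, from 18.8 to 27.5% in the RAD tables and from 15.9 to 20.0% in the ULB tables. The share in GOM was above, and the share in ULB below, that of all bins in each of these tables. The RAD tables of WG lay below that of all bins too (27.5 and 33.8%), and the MAD tables close to it (34 to 35.4%).

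**Figure D3:**
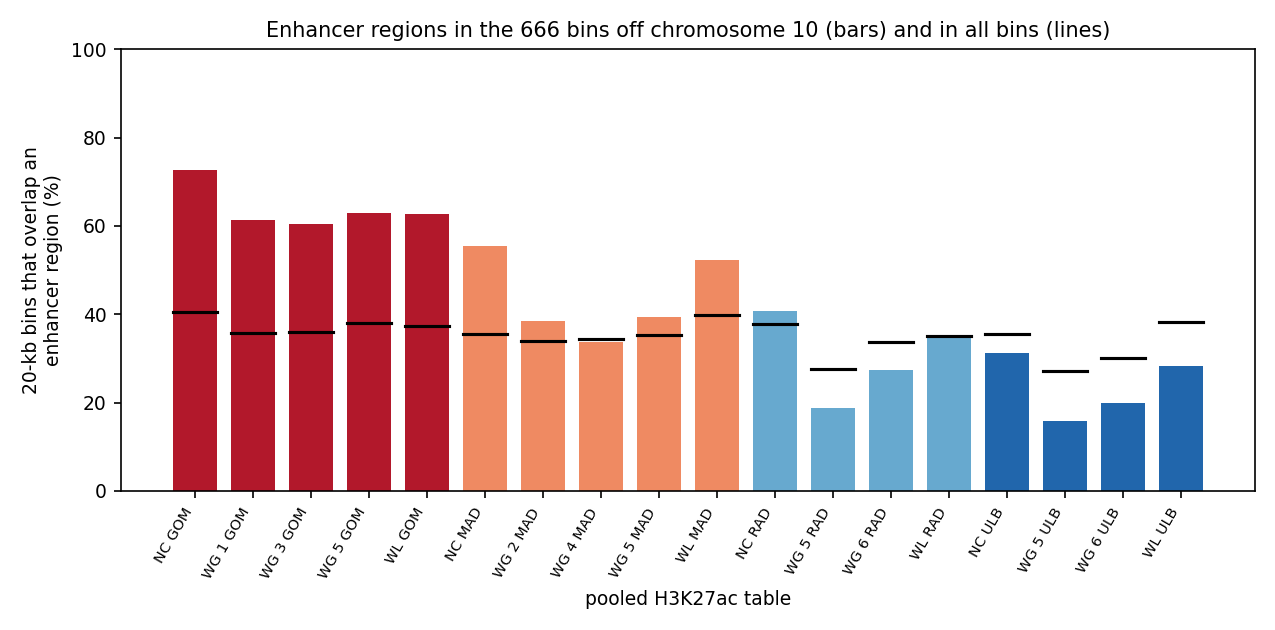
Percent of the members on the other autosomes (bars) and of all bins (lines) that overlap an H3K27ac enhancer region, in each of the 18 tables of pooled reads (a single sample for NC MAD), by diet and depot. The bars of GOM (60.5 to 72.7%) stand above their lines and those of ULB (15.9 to 31.2%) below theirs.

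Of the members elsewhere, 519 overlapped a region in at least 1 GOM table and 286 in at least 1 ULB table. For 242 the region was found in GOM tables only, for 9 in ULB tables only, for 277 in both and for 138 in neither, and 137 bins had one in all 5 GOM tables and in no ULB table. As shares of the members these were 36.3%, 1.35%, 41.6%, 20.7% and 20.6%, against 8.55%, 6.25%, 39.6%, 45.6% and 2.66% of all bins. On chromosome 10, 276 of 323 members (85.4%) overlapped none, as did 40.9% of all bins of that chromosome. Super-enhancers, the densest regions in the ROSE ranking, covered 137 members elsewhere in the NC GOM table (20.6%, against 8.85% of all bins) and 2 in the NC ULB table (0.30%, against 6.97%). Of the 44 PCGs that start in a member bin, 33 had a region in that bin in both depots, 5 in GOM tables only (PKHD1L1, WWC1, SV2B, TJP1 and FOXI1), GCSAM in a ULB table only, and 5 in neither. For these counts 1 table of a depot was enough: WT1 had a region in 5 GOM tables and 1 ULB table, and KDR in 5 and 4. The share among all bins with a gene start was not counted, so these counts are a description.

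The 44 PCGs started in 40 member bins, 41 of them on the other autosomes and 3 on chromosome 10 (PRKCQ, GAD2 and MALRD1). A gene was placed by its symbol in the RefSeq annotation of Sscrofa11.1, which gave 13052 of the 21280 PCGs of the files a start in an autosomal bin. The pairs that share a bin are MACC1 with ITGB8, COLEC10 with SAMD12, KLRG1 with M6PR and CCDC73 with PRRG4, and they do not give separate evidence on the index. Expression was tested with edgeR on the authors' estimated counts over all PCGs above 0.5 TPM (a share of all transcripts scaled by transcript length, so that levels of genes can be compared) in at least 80% of the libraries of a group, and calls needed a fold change over 1.5 besides an adjusted p under 0.05.

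Member genes were mostly higher in GOM than in ULB where they differed. In NC, 19 of 36 tested members were called, 18 higher and 1 lower in GOM, while 25.4% of all genes were called and 12.1% were higher. In WG, 20 of 35 were called, 18 higher and 2 lower, against 17.9% and 10.3% of all genes. In WL, 21 of 35 were called, 19 higher and 2 lower, against 16% and 9.81%. The median log2 fold change, GOM over ULB, was 1.00, 0.62 and 0.82 over the members tested and 0.02, 0.00 and 0.01 over all genes. Genes tested only because GOM passed the filter on low values were chosen by being high there, so the counts are no support on their own, and such genes numbered 7 in NC (CCDC73, GCSAM, PKHD1L1, PRKCQ, SV2B, WT1 and WWC1) and 6 in WG and in WL (CDH1, COLEC10, PKHD1L1, SV2B, WT1 and WWC1). Accounted for one by one, 15 members were higher in all 3 diets, 22 in at least 1 and 2 were lower in at least 1. No share of all genes stands beside these counts, so they list members and do not show how unusual the members are. They come from the fits without the replicate block, with which ROR2, PRKCQ and VIPR2 of the 15 lost their NC call. Another 12 members were tested in all diets and called in none, CCDC73 was tested in NC alone and not called, and 7 (GAD2, PATE3, FOXI1, CETN1, PCP4, MALRD1 and ZNF488) passed the filter in no diet.

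WT1, at chr2:28411467-28456007 on the forward strand, showed the largest difference. In each diet it passed the filter on low values in GOM and not in ULB, so its p-values are no support on their own. Its level in GOM had a lowest, median and highest value of 31.9, 71.8 and 130.2 TPM in NC, 12.9, 40.2 and 182 TPM in WG, and 21.9, 48.2 and 181 TPM in WL. In the 5 NC ULB libraries it was 2.38, 0.627, 0.0975, 0.963 and 0.238 TPM, in WG ULB it ran from 0 over 0.154 to 23.8 TPM, and in WL ULB from 0 over 0.0144 to 1.71 TPM. The depots did not overlap in NC and WL, and in WG they overlapped through a single ULB library. The log2 fold change was 6.50 (SE 0.58, edgeR adjusted p = 6.38e-07) in NC, 5.86 (SE 0.44, adjusted p = 5.47e-21) in WG and 7.77 (SE 0.65, adjusted p = 5.29e-09) in WL. That library, WG ULB replicate 7, had 23.8 TPM of WT1 against at most 0.741 in the other 37, and without it the WG value was 7.84 (adjusted p = 2.69e-43). With the replicate number as a block in WG it was 7.54.

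PKHD1L1 encodes a large receptor-like membrane protein related to fibrocystin and starts at chr4:28176331 on the reverse strand. It had 6.47, 15.9 and 28.2 TPM (lowest, median and highest) in GOM in NC, 0, 7.42 and 25.2 TPM in WG, and 7.03, 15.3 and 34.6 TPM in WL. The NC ULB libraries had 1.51, 0.109, 0.354, 0 and 0.510 TPM, and no ULB library of any diet exceeded 2.43 TPM. All GOM libraries of NC and WL lay above all ULB libraries. The log2 fold change was 4.98 (SE 0.64, edgeR adjusted p = 2.83e-05), 4.60 (SE 0.30, adjusted p = 1.42e-24) and 4.87 (SE 0.43, adjusted p = 1.39e-08) in NC, WG and WL. This gene too passed the filter in GOM and not in ULB in each diet, so its p-values are no support on their own.

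CDH1 encodes E-cadherin, the adhesion protein of epithelial sheets, and starts at chr6:18155986 on the reverse strand. Its GOM levels were 8.15, 18.3 and 55.7 TPM in NC, 1.93, 13.3 and 52.7 TPM in WG, and 7.19, 17.5 and 56.4 TPM in WL. The NC ULB libraries had 1.04, 2.19, 1.08, 0.813 and 1.53 TPM. The ranges did not overlap in NC and WL, and the log2 fold change was 4.35 (SE 0.45, edgeR adjusted p = 2.98e-06), 3.65 (SE 0.25, adjusted p = 1.05e-22) and 5.29 (SE 0.38, adjusted p = 5.01e-10). In WG and WL, CDH1 passed the filter in GOM and not in ULB, so the p-values of those diets are no support on their own. A GOM library of WG, replicate 35, stood apart in the other direction, with 0 TPM of PKHD1L1, 1.93 TPM of CDH1 and 20.3 TPM of DPT, where the other 44 had at least 1.15, 2.41 and 122 TPM. Without it the WG log2 fold change was 4.63 for PKHD1L1 and 2.18 for DPT.

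SV2B, a glycoprotein of synaptic vesicles, and WWC1, a scaffold of the Hippo pathway that is also called KIBRA, followed the same pattern at lower levels. SV2B had 2.0, 3.34 and 28.9 TPM in GOM in NC and at most 1.64 TPM in any ULB library, with log2 fold changes of 4.45, 3.22 and 5.21 in NC, WG and WL (SE 0.74, 0.22 and 0.65). The highest NC value came from 1 library, and without it the NC log2 fold change was 3.76 (adjusted p = 7.11e-05). WWC1 had 5.37, 7.36 and 19.4 TPM in NC, 2.53, 8.89 and 24.2 TPM in WG and 7.0, 15 and 28.1 TPM in WL in GOM, while the NC ULB libraries had 0.487, 1.06, 0.991, 0.450 and 1.76 TPM. Its log2 fold change was 3.57, 3.39 and 4.50 (SE 0.41, 0.17 and 0.30). Neither gene's range overlapped between the depots in NC or WL. Both passed the filter in GOM and not in ULB in each diet, so their tests are no support on their own.

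**Figure D4:**
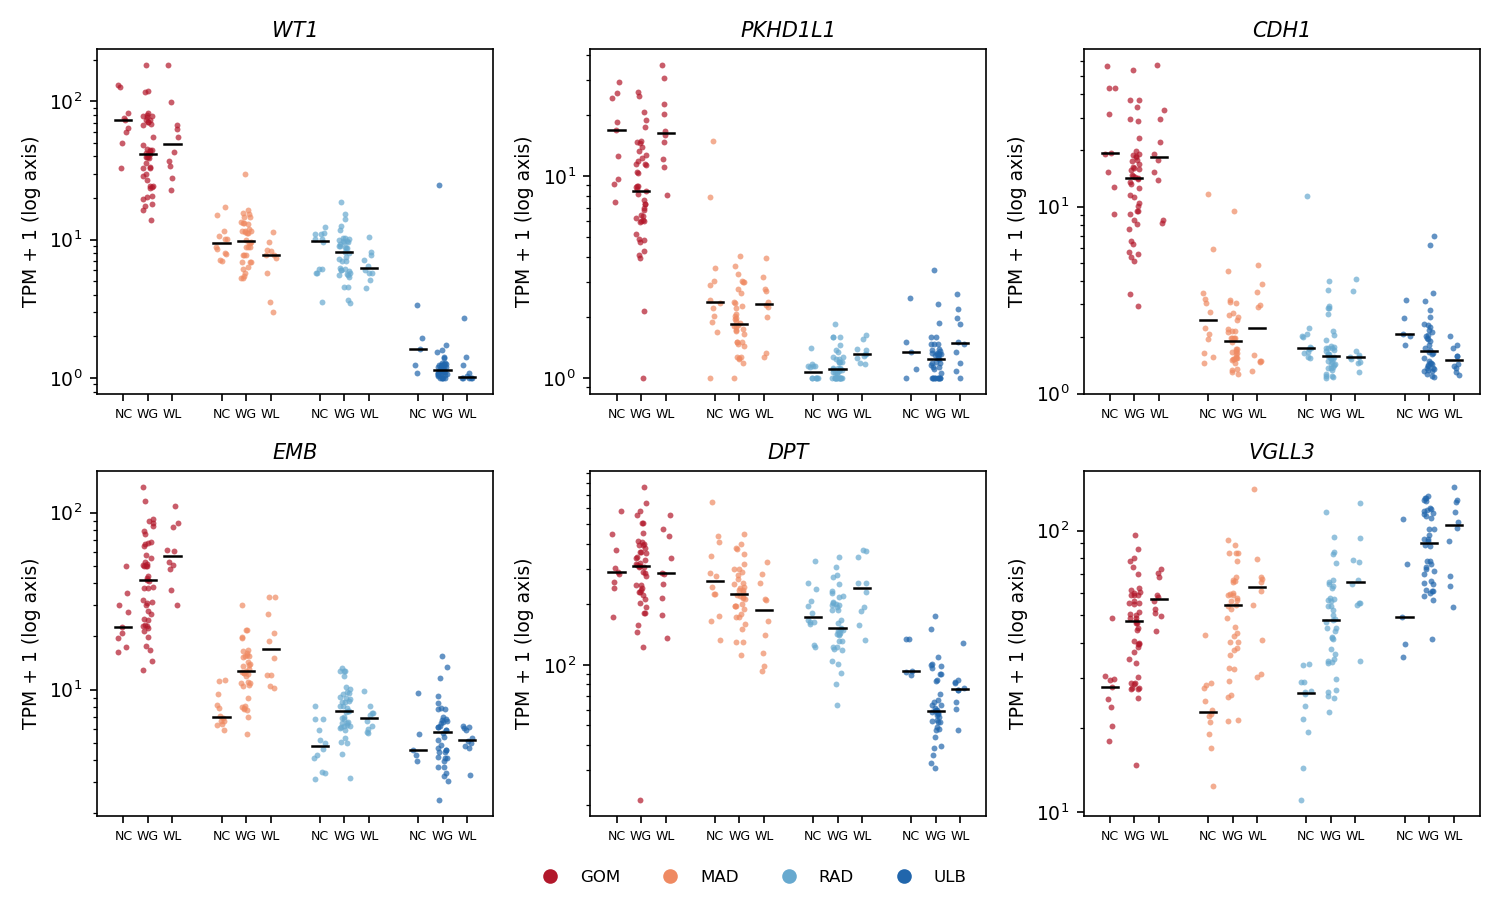
TPM + 1 (log axis) of WT1, PKHD1L1, CDH1, EMB, DPT and VGLL3 in each RNA-seq library, by depot and diet. Each point is a library, and for the first 5 genes the GOM libraries of NC and WL lie above the ULB libraries (WT1 at 21.9 TPM or more against 2.38 TPM or less), while VGLL3 lies lower in GOM.

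EMB encodes embigin, a chaperone of monocarboxylate transporters, and its difference was 2.51, 3.09 and 3.85 (SE 0.33, 0.18 and 0.22) on the log2 scale in NC, WG and WL. In GOM it had 15.2, 21.5 and 48.8 TPM in NC and 28.9, 55.6 and 108 TPM in WL, against 3.29, 2.93, 4.62, 3.55 and 8.54 TPM in the NC ULB libraries. DPT, a collagen-binding protein of the extracellular matrix, was the most abundant of the 15 in GOM, with 172, 288 and 578 TPM in NC. The NC ULB libraries had 92.6, 134, 134, 88 and 91.6 TPM, and the log2 fold change was 1.67, 2.15 and 2.04 (SE 0.24, 0.15 and 0.21). ZFPM2, the GATA cofactor of the longest run, had 15.6, 25.0 and 48.7 TPM in GOM in NC and 10.1, 8.03, 4.95, 11.9 and 5.61 TPM in the NC ULB libraries, and its log2 fold change was 1.74, 1.51 and 1.82 (SE 0.25, 0.12 and 0.17).

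The genes called higher in all 3 diets also included SAMD12 (log2 fold change 2.38, 1.67 and 1.95), SAMD5 (1.96, 0.72 and 1.01), ROR2 (1.6, 0.62 and 1.38), PRKCQ (1.68, 0.71 and 1.07), VIPR2 (0.99, 1.45 and 1.47) and MTUS1 (1.01, 0.77 and 0.84). ROR2 is a receptor of WNT5A, VIPR2 a receptor of the peptides VIP and PACAP, PRKCQ a kinase of T-cell receptor signalling, and MTUS1 a protein bound to microtubules. Same-numbered samples were taken as pairs in NC, and with the replicate number as a block 4 calls were lost there: ROR2 (adjusted p = 0.0541), PRKCQ (adjusted p = 0.314), VIPR2 (adjusted p = 0.104) and GCSAM (adjusted p = 0.435), by edgeR. In WG, ROR2 was at 0.49 without WG GOM replicate 35 and at 0.52 with the replicate block, both below the limit on fold change.

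Called in only some diets were TJP1, the tight-junction protein ZO-1 (1.40 in NC and 0.82 in WL), ITGB8, an integrin subunit that activates TGF-beta (1.21 in NC and 0.82 in WG), COLEC10, a collectin (1.09 in WG and 1.35 in WL), BICC1 (0.84 in WL), PPIC (0.70 in WL), RIMKLB (0.69 in WG) and GCSAM (2.42 in NC). COLEC10 and SAMD12 overlap at their starts on opposite strands, and the counting used strand.

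VGLL3, a cofactor of TEAD transcription factors, and MACC1, a regulator of the receptor MET, were the members called lower in GOM. VGLL3 started in a bin that was positive in 81.5% of GOM samples and 29.6% of ULB samples, yet its log2 fold change was -1.13, -1.02 and -0.76 (SE 0.24, 0.10 and 0.15, edgeR adjusted p = 0.00216, 2.04e-15 and 0.00052). It had 16.9, 26.8 and 47.7 TPM in GOM in NC and 38.6, 48.4, 109, 34.5 and 75 TPM in the NC ULB libraries, so the ranges overlapped. MACC1 was at -0.96 in WG and -0.87 in WL, and at 0.01 in NC, where it was not called. The 5 most abundant members tested in all diets and called in none were ARHGAP5, a GTPase-activating protein, M6PR, a mannose 6-phosphate receptor, KDR, the endothelial VEGF receptor, PRRC1 and HELB, a DNA helicase. ARHGAP5, for example, had a median of 139 TPM in GOM and 129 TPM in ULB in NC.

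MAD and RAD were then each compared with ULB. These comparisons share the ULB libraries with those of GOM, so the values stand side by side. In MAD, 8 of 34 tested members were called in NC (7 higher and 1 lower), against 7.73% of all genes (3.17% higher). In WG 14 of 33 were called (12 higher and 2 lower), against 14.4% (8.18% higher), and in WL 11 of 35 (10 higher and 1 lower), against 14.4% (8.89% higher). In RAD, 5 of 32 were called in NC (3 higher and 2 lower), against 4.32% (1.40% higher), 7 of 31 in WG (6 higher and 1 lower), against 9.27% (4.07% higher), and 3 of 32 in WL (all higher), against 4.34% (2.05% higher). In NC the MAD count was 4 without ULB replicate 12 or 7 and 5 without replicate 2, when PCP4, SAMD5 and ZFPM2 were among those lost, and the RAD count was 3 without replicate 7 or 2, when SAMD5 and BICC1 were lost.

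WT1 was called higher in MAD (3.36, 3.59 and 4.56 in NC, WG and WL) and in RAD (3.15, 3.22 and 4.40), with medians of 8.46, 8.85 and 6.77 TPM in MAD and 8.80, 7.21 and 5.24 TPM in RAD. The WG values were 5.56 in MAD and 5.20 in RAD without WG ULB replicate 7. DPT was called in both depots in each diet as well, at 1.49, 1.78 and 1.34 in MAD and 0.92, 1.31 and 1.71 in RAD. ZFPM2 was called in MAD (0.90, 0.94 and 0.70) and not in RAD (0.21, 0.14 and 0.06), and EMB was called in MAD in WG and WL (1.23 and 2.19) and not in RAD. Of the genes with the largest differences after WT1 in GOM, SV2B passed the filter on low values in neither depot, and PKHD1L1, CDH1 and WWC1 passed it in some diets without being called. PKHD1L1 was at 2.43 in MAD in NC, and CDH1 had a median of 1.48 TPM in MAD and 0.763 TPM in RAD in NC. The difference between depots in these fold changes was not tested. VGLL3 was lower than in ULB in MAD (-1.41, -0.84 and -0.64) and, in NC and WG, in RAD (-1.28 and -0.87). With the replicate block in WG, where samples of MAD and ULB were taken as pairs, PRKCQ fell under the limit on fold change in MAD (0.58) and VIPR2 passed it (0.63).

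**Figure D5:**
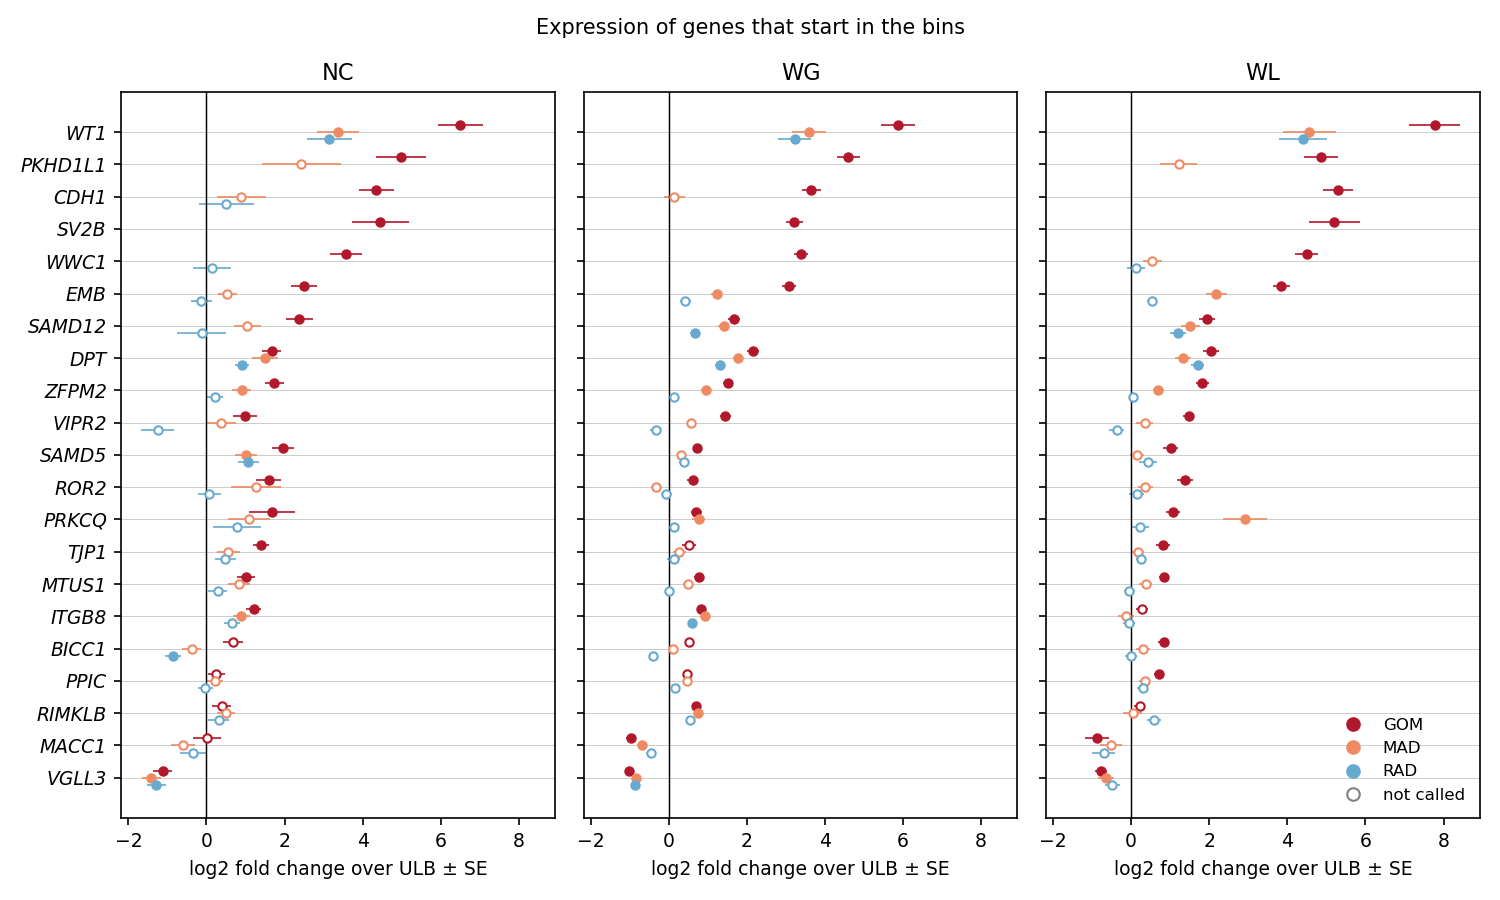
Log2 fold change over ULB (± SE) of 21 member genes in GOM, MAD and RAD, by diet. Filled symbols were called and open ones were not. WT1 lies highest in each panel (6.50, 5.86 and 7.77 in GOM). PKHD1L1, CDH1 and WWC1 have calls in GOM and none in MAD or RAD, where they were tested in some diets only. SV2B was called in GOM and not tested in MAD or RAD.

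A few members were high in MAD libraries of their own. PCP4, a calmodulin-binding peptide of neurons and smooth muscle, was called over ULB in MAD at 7.59, 3.13 and 5.03, and in NC MAD its 3 highest libraries had 1420.2, 537 and 119 TPM while the median was 10.9 TPM. Without the highest library the NC value was 6.23 (adjusted p = 0.0421). The sum of the smooth muscle and pericyte markers reached 13031 TPM in NC MAD, with a median of 987 TPM there and 510 TPM in NC ULB, and its part in the PCP4 values was not tested. GCSAM, a gene of germinal centre B cells, and PRKCQ were called in WL MAD at 4.16 and 2.92, where the 3 highest libraries had 36.6, 17.2 and 14.3 TPM of GCSAM, with 1.98 TPM in the next one, and 25.7, 21.2 and 10.4 TPM of PRKCQ, with 3.16 TPM in the next one. KLRG1, a receptor of T and NK cells, was called there at 1.13, and at 0.97 without WL MAD replicate 6 it was not (adjusted p = 0.0577). The T cell and B cell marker sums reached 721 and 7685 TPM in WL MAD, and their part in these values was not tested.

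Within GOM, 10 of 37 tested members were called between NC and WG, 2 higher and 8 lower in WG, against 26.7% of all genes. CCDC73 was lower by 3.89 on the log2 scale (medians of 5.98 and 0.258 TPM), CDH1 and PKHD1L1 by 1.16 each, and KLRG1 was higher by 1.27 (2.18 and 6.59 TPM). WT1 (-0.94), SV2B (-1.13), MACC1 (-1.03), TJP1 (-0.99) and PHC1 (-0.64) were also lower in WG, and M6PR (0.80) higher, but SV2B was at -0.47 and not called without NC GOM replicate 5. Of the 9 NC GOM libraries, 7 had under 88% of TPM on PCGs, and with libraries of at least 88% the count was 1. From WG to WL, 4 of 35 were called, against 5.26% of all genes, and SV2B (1.23), PKHD1L1 (1.01) and WWC1 (0.74) among them were higher in WL. With that limit on the PCG share this count was 0.

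In MAD, 9 of 34 were called between NC and WG, 5 higher and 4 lower in WG, against 10.7% of all genes, led by PCP4 (-5.74, and -4.39 without NC MAD replicate 1), PKHD1L1 (-1.64), COLEC10 (-1.49) and CDH1 (-1.22). Between WG and WL 6 of 36 were called, 4 higher and 2 lower in WL, against 17.4%, led by GCSAM (2.20, and 1.44 without WL MAD replicate 6), PCP4 (1.86) and PRKCQ (1.82, and 1.37 without it). In RAD, 9 of 33 were called between NC and WG, 6 higher and 3 lower in WG, against 16.7%, led by SAMD12 (1.37), CDH1 (-1.37), ROR2 (0.90) and KLRG1 (0.87). Between WG and WL, 0 of 32 were called in RAD by edgeR and by DESeq2, against 6.37% of all genes, and 6 had an unadjusted p below 0.05. SAMD5 and PPIC, whose bins were called higher in WL RAD, were among those not called. In ULB, 0 of 30 were called between NC and WG by edgeR (2.38% of all genes), where 8 had an unadjusted p below 0.05 and DESeq2 called 1. Between WG and WL, 1 of 29 was called in ULB, ITGB8 at 0.62, against 8.12% of all genes.

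Whether the difference between GOM and ULB itself changed with diet was tested as an interaction in edgeR. From NC to WG, 1 of 37 members was called, SAMD5, whose log2 fold change was smaller in WG by 1.22 (-1.22, adjusted p = 0.00641), against 2.31% of all genes. From WG to WL, 1 of 37 was called, SV2B, whose log2 fold change was larger in WL by 1.97 (adjusted p = 0.0388), against 1.09% of all genes.

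Markers of some other cell types differed between the depots. Of the 18 listed mesothelial markers 11 were found and 10 tested, and 9 were higher in GOM than in ULB in each diet, at a median log2 fold change of 4.24, 4.55 and 5.0. Their summed level was 324 TPM in GOM in NC (187 to 669 TPM), 325 TPM in WG (83.8 to 1166 TPM) and 513 TPM in WL (222 to 1114 TPM), against 36 TPM (29.9 to 63.8 TPM), 23.8 TPM (8.85 to 143 TPM) and 24.1 TPM (10.0 to 174 TPM) in ULB, and none of the 11 was at 0 in all libraries of a group. The summed level had medians of 40.1, 39.1 and 50.1 TPM in MAD and 20.2, 20.4 and 32.5 TPM in RAD. WT1 and PKHD1L1 are on that list, and the part of these cells in the values of the member genes was not tested. Of 5 T cell markers, 4, 5 and 5 were higher in GOM in NC, WG and WL, and of 10 adipocyte markers 7, 1 and 7 were lower. Of 5 endothelial markers 1, 0 and 0 were called, lower in GOM, and of 7 macrophage markers 2, 2 and 0, higher in GOM. Of 7 smooth muscle and pericyte markers, 0 were called in NC, and calls went in both directions in WG and WL. KDR, the one member on the endothelial list, was not called. The visceral lineage factors, which include WT1, were higher in GOM for 10 of 14 in each diet and lower for 2, 1 and 2 (EBF3 in each diet, and TBX18 in NC and WL), and of the subcutaneous patterning factors 11 of 11, 10 of 10 and 10 of 10 were lower.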

How the data were processed

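Hi-C, RNA-seq and H3K27ac data of the 4 depots were analysed as deposited, on Sscrofa11.1. The A-B index is a score that the authors computed at 20 kb from Hi-C maps aligned and filtered with Juicer, balanced and quantile normalized between samples, with the compartment sign set per chromosome and sample. It carries no read count per bin, so its depth is unknown and precision comes from the spread between samples. The authors quantified RNA with kallisto 0.43.0 (stranded, Ribo-Zero libraries) and deposited estimated counts and TPM values, and the counts, which are not whole, were rounded for the tests. The enhancer tables, with the authors' ROSE signal, and the TAD tables were used for positions alone. Library totals on PCGs ran from 3337098 to 22939420 (median 16791660, n = 236), and 65.6 to 96.9% of TPM fell on PCGs. In each of these tables, 9 columns matched no labelled sample and were not used.

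The index was tested with limma 3.58.1 and expression with edgeR 4.0.16 (quasi-likelihood, TMM, Benjamini-Hochberg over all bins or all genes tested), with DESeq2 1.42.0 as an alternative, in R 4.3.3. The fits were tested on simulated counts with known changes. The members and all lists were chosen with earlier results of these data known. Bins were named as the 5 longest runs, the 3 largest differences between GOM and ULB, the bins at the limits, and the 3 highest and lowest in MAD and in RAD. Genes were named as the 15 largest among those called higher in all 3 diets, up to 8 called lower, the 5 most abundant called in none, up to 4 per diet comparison, members of marker lists, and WT1. A gene that the rule names is counted but not reported here. Genes outside this rule, such as those called in some diets, and the libraries left out one at a time beyond the NC ULB ones, were chosen after their values were seen.

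Whether replicate numbers pair the samples was checked by the correlation of deviations from the group means. In expression, every pair was above 0.1 for GOM and ULB in NC (4 pairs, lowest 0.102), MAD and ULB in WG (30 pairs, lowest 0.267) and RAD and ULB in WG (33 pairs, lowest 0.101), which were taken as paired from the data, since the labels give only the number. With the block, the calls numbered 15, 14 and 7 there. For GOM and ULB in WG, 37 of 38 pairs were above 0.1 (median 0.644, against -0.0766 between other numbers) and 1 was at -0.396, so the rule was not met and the comparison was fitted without the block. With it the calls numbered 19 in place of 20.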

Additional observations from a re-analysis of the deposited data

Results flagged for a closer look

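Among 12 shares of positive bins and 64 gene levels in groups of 4 to 10 samples, 3 and 12 had a highest or lowest sample whose gap to its neighbour passed Dixon's 95% limit, which chance passes in about 1 in 20 groups. On chromosome 10, an NC GOM sample had 1.86% of the members positive where the next had 99.7%, and an NC ULB sample had 88.5% where the next had 6.81%. A WL MAD sample had 31.7% of the members elsewhere positive, with 49.2% in the next.

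In RNA, WT1 was at 181 TPM in a WL GOM library (next 97.5) and at 1.71 TPM in a WL ULB library (next 0.420), CDH1 at 56.4 TPM in WL GOM (next 31.9), and SV2B at 28.9 TPM in NC GOM (next 7.99) and 30.3 TPM in WL GOM (next 16.4). In WL ULB, EMB was low in a library at 2.31 TPM (next 3.70) and DPT high at 127 TPM (next 83.4). ZFPM2 was at 48.7 TPM in NC GOM (next 30.5) and 47.1 TPM in WL GOM (next 30.3), VGLL3 at 47.7 TPM in NC GOM (next 29.3), and in WL GOM SAMD5 was at 12.4 TPM (next 8.31) and PRKCQ at 4.05 TPM (next 2.52).

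The difference between GOM and ULB itself differed between diets, by edgeR's interaction term, for SAMD5 (-1.22 on the log2 scale from NC to WG, adjusted p = 0.00641) and for SV2B (1.97 from WG to WL, adjusted p = 0.0388). In each case this was 1 of 37 members, against 2.31% and 1.09% of all genes, so such calls are no trait of the members. SV2B passed the filter on low values in GOM and not in ULB, and its WL GOM library at 30.3 TPM was not left out.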

How the results depend on the processing

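Counts of member genes called are given in the order NC, WG and WL. Classes at 80% and 20% left 266 bins, 0 of them on chromosome 10. The genes called there numbered 11, 12 and 11 for GOM against ULB, 3, 6 and 4 for MAD, 2 and 3 for RAD in NC and WG, 3 for NC to WG in MAD and in RAD, and 2 for WG to WL in MAD. With genes that have any part in a member bin, the counts were 54, 56 and 60 for GOM, 21, 36 and 33 for MAD and 13, 18 and 13 for RAD against ULB, 28, 15, 20 and 1 from NC to WG and 12, 21, 7 and 9 from WG to WL in GOM, MAD, RAD and ULB. With libraries of at least 88% of TPM on PCGs, the counts were 4 and 7 for MAD and 2 and 6 for RAD against ULB in NC and WL, 1 for NC to WG in GOM and 5 in RAD, and 0 for WG to WL in GOM and in MAD. With that share as a covariate, WG to WL gave 1, 2, 1 and 2. With the replicate block, RAD against ULB gave 5 in WL, NC to WG 2, 0 and 2 in GOM, MAD and RAD, and WG to WL 0 in GOM and 2 in RAD. The pigs differ between diets, so in the diet comparisons of genes and of bins the block pairs no animals. From NC to WG in ULB, DESeq2 called 1 and the fit with no filter on low genes 2. Members taken from the quantile normalized index gave 10, 2 and 2 for WG to WL in MAD, RAD and ULB. Of the bins called, MAD against RAD had 63 in NC and 0 in WL at an adjusted p below 0.01, 71 in NC and 12 in WG with classes at 80% and 20%, 142 in WG and 15 in WL at a difference above 0.5, 17 in WL in the quantile normalized index and 21 in WL with the replicate block. For NC to WG in MAD these were 9, 91 and 58 (stricter classes, smaller difference, quantile normalized index), for WG to WL in MAD 1 and 36 with the first 2 and 0 with the block, for NC to WG in RAD 6 and 89, and for WG to WL in RAD 23, 139 and 3, and 2 with the block. The median number of members overlapping an enhancer region fell from 268.5 per table to 90 where 50% of the bin had to overlap and to 4 with super-enhancers, and a TAD boundary in the bin or its neighbour was found for 12.5% in place of 4.2%. The causes were not tested. Leaving out 1 library gave 17 to 20 and 19 to 20 genes for GOM against ULB in NC and WG, 4 to 8, 15 and 10 for MAD, 3 to 5 and 7 for RAD, 9 to 10 for NC to WG in GOM, 7 in MAD, 0 to 1 in ULB (DPT, without WG ULB replicate 7), 5 for WG to WL in GOM and in MAD and 1 in ULB, and 994 bins without WL GOM replicate 9. RLE size factors, members without the 12 samples and members without chromosome 10 moved 0 counts by over 1.5 times, and no direction was reversed. Of the fits of named genes, 563 kept their call, 31 lost it and 4 gained it.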
